A study of Mus musculus with 24 samples.

Results

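Effector and exhaustion transcription factors set the fate of a CD8 T cell once it has met antigen, and 9 of them were followed here among the 24421 genes counted: Tox, Tox2, Eomes, Tbx21, Prdm1, Id2, Irf4, Zeb2 and Runx3. They were chosen by name, as known regulators of effector, tissue-resident and exhausted CD8 T cells, and not by their values. Earlier results of these data were known when they were chosen. The cells carried the sort phenotype CD45+CD3+CD8+ and came from the pancreas or blood of KC mice, a model of pancreatic cancer that begins with preinvasive lesions, or of WT B6 mice. KC pancreas gave 12 libraries: 3 at the age of 4 weeks, 2 at 9 weeks, 3 at 13 weeks, 2 at 20 weeks and 2 at 30 weeks. WT pancreas gave 2 libraries, 1 of 9 weeks and 1 of 30 weeks. KC blood gave 9 libraries: 2 at 4 weeks, 1 at 9 weeks, 3 at 13 weeks, 1 at 20 weeks and 2 at 30 weeks, and WT blood gave 1 library of 30 weeks. No treatment is named for any group. The alleles of the KC mice and any pooling of animals are not given in the sources used here. Nothing in the labels says that the libraries of a group came from separate mice, so p-values measure the spread between libraries, which may in part be technical. Single libraries are named by their titles, in which P8 marks pancreas and B8 marks blood.

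As background, T-bet (the product of Tbx21) and Eomes are related T-box factors: T-bet drives cytotoxic effector differentiation, while Eomes is shared by memory, effector and exhausted cells. Irf4 is induced by T cell receptor signals, Prdm1 encodes Blimp-1, a transcriptional repressor that promotes terminal effector differentiation and tissue residency, and Zeb2 acts downstream of T-bet in terminal effector cells. Id2 blocks E proteins, Runx3 establishes the CD8 lineage and the cytotoxic programme, and Tox and Tox2 are HMG-box proteins needed for the exhausted state.

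Levels are given as CPM, counts scaled to 1000000 reads counted in genes. The libraries held 6352070 to 16716169 such counts, with a median of 9602260, so that a factor at 1 CPM rested on a handful of reads. CPM takes no account of TMM factors, a further scaling of library sizes of the kind used in the edgeR fits. Over the 24 libraries these factors ran from 0.474 in Sample_132P8 to 1.82 in Sample_95B8. As a check of the label of the cells, 8 T cell core genes were summed (Cd3d, Cd3e, Cd3g, Cd247, Cd8a, Cd8b1, Cd2 and Lck), and they came to 6528 to 19023 CPM in KC pancreas, 10084 and 11446 CPM in WT pancreas, 6251 to 15544 CPM in KC blood and 8401 CPM in WT blood. None of the 8 was at 0 throughout a group. Genes abundant in just 1 library left traces elsewhere, and the pattern of these traces split the 24 libraries into 2 sets of 12. Over 95 such genes from 14 source libraries, a trace was detected in 92.4% of cases within the set of its source and in 47.7% in the other set, at a median of 0.205% of the source level within the set. The sets were drawn from the traces of these same genes. A higher share within a set was thus partly built in and cannot test the split. Set 1 consisted of all WT libraries, the KC pancreas libraries of 4 and of 13 weeks, Sample_131B8, Sample_42B8 and Sample_43B8. On the score whose sign gave the set, Sample_95B8 (-0.0306), Sample_95P8 (-0.0576) and Sample_132B8 (-0.0602) lay nearest to 0. Their place in set 2 is thus the least certain. The level that such carry-over would give was estimated for each factor and library as that percentage of the factor's summed CPM in the other libraries of the set.

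Runx3, Tox and Id2 were found well above trace levels in nearly all libraries, and the other factors were high in some libraries and close to trace levels in others. Per kilobase of exonic length, which allows genes to be compared, the median over 24 libraries was 31.7 CPM per kb for Runx3, 21.8 for Tox, 14.1 for Id2 and 10.7 for Eomes. It was 1.40 CPM per kb for Irf4, 1.14 for Tbx21, 0.836 for Zeb2, 0.332 for Prdm1 and 0.0568 for Tox2. The ranges of neighbours in this order overlapped over the libraries.

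A level of 50 CPM or more was reached by Runx3 in 24 of 24 libraries and by Tox in 19. Eomes reached it in 10 libraries, Id2 in 7, Irf4 in 5, Zeb2 in 5, Tbx21 in 3, Prdm1 in 2 and Tox2 in 0. At the other end, Prdm1 was not above 5 times its carry-over estimate in 13 libraries, Tbx21 in 11, Zeb2 in 11 and Irf4 in 10. The same held for Eomes in 5 libraries, Tox2 in 5 (those with no count), Tox in 2, Id2 in 1 and Runx3 in 0. In bulk libraries fewer cells that express a factor and less of its RNA per cell cannot be told apart.

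**Figure D1:**
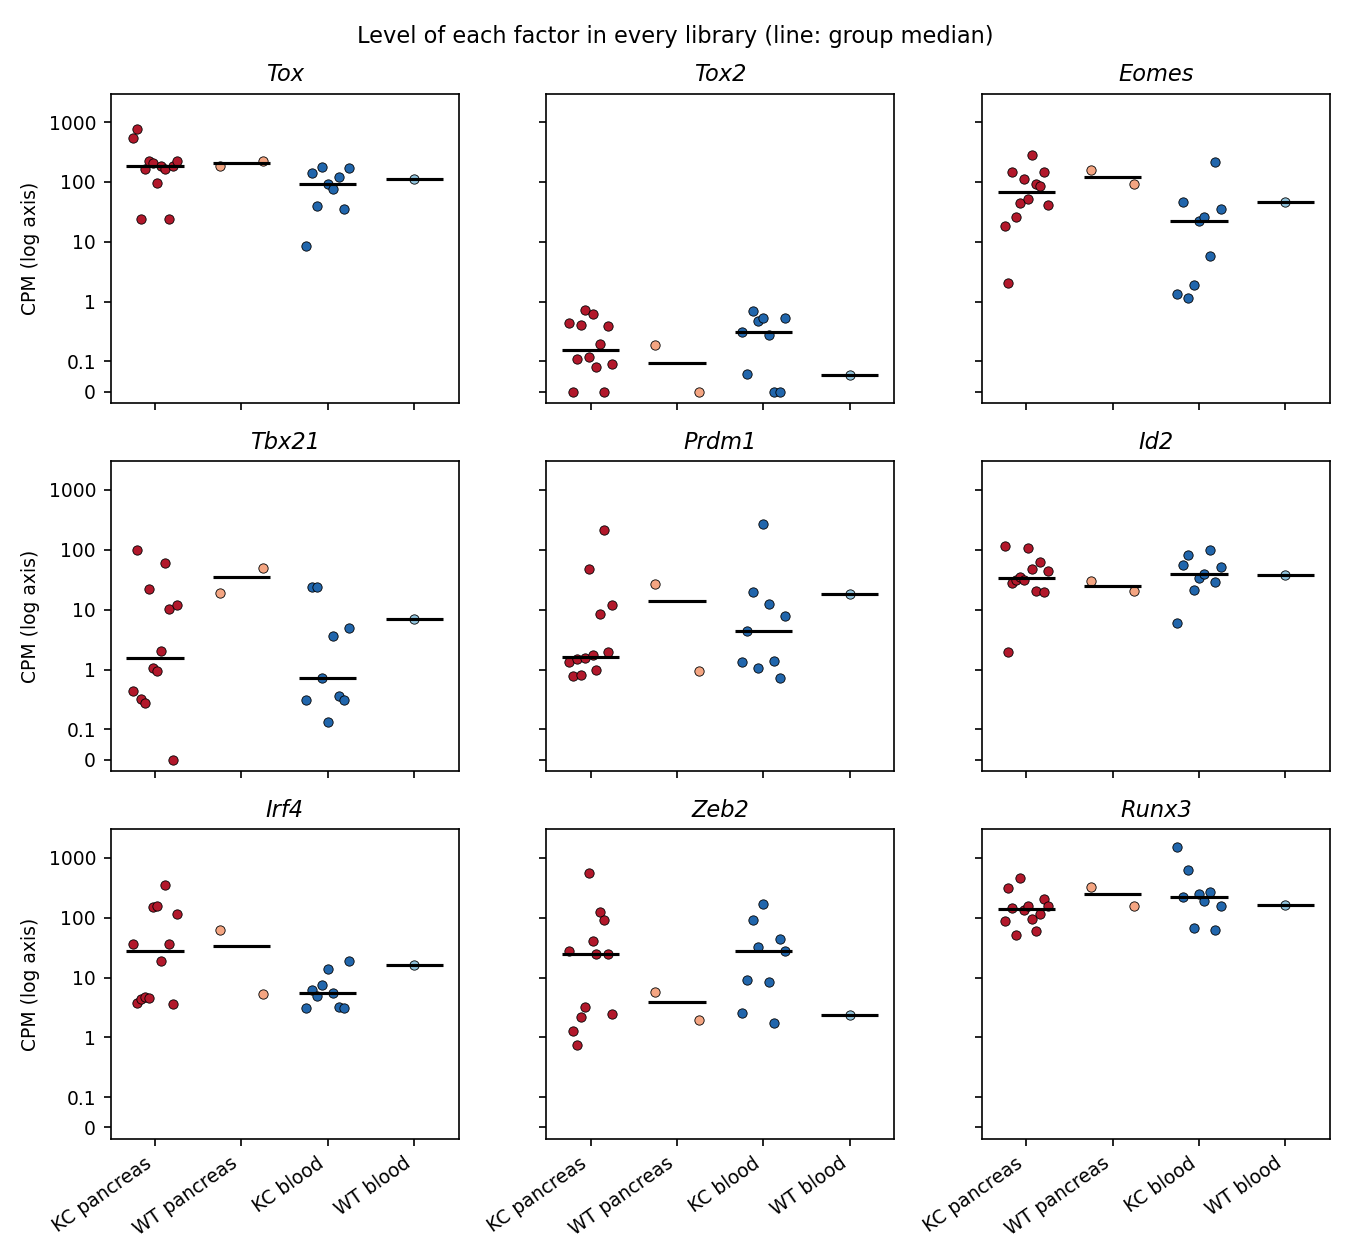
CPM of each factor on a log axis (0 drawn at the foot) in KC pancreas (n = 12), WT pancreas (n = 2), KC blood (n = 9) and WT blood (n = 1). Each point is 1 library and each line a group median. Runx3 stayed at 51.8 CPM or higher everywhere, while Tbx21, Prdm1, Irf4 and Zeb2 spread over 2 or more orders of magnitude.

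The comparison of KC pancreas with KC blood asks how the factors differ between T cells in the diseased organ and those in circulation. Of the 9 factors, 8 passed the filter on low counts, and none of them passed the edgeR quasi-likelihood test at a Benjamini-Hochberg adjusted p under 0.05. Over all 11059 genes tested, 10 were called, a share of 0.0904%, so a count of 0 among 8 is close to the background. Irf4, Eomes and Tox had the smallest p-values, all with higher estimates in pancreas. The median log2 fold change was 0.84 over the 8 factors and -0.12 over all genes, with 5 factors above 0 and 3 below. Of the 8 factors, only Irf4, Eomes and Tox had an unadjusted edgeR p under 0.05, as did 1089 of all 11059 genes tested.

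Irf4, the factor that reads out the strength of receptor signals, ran from 3.55 CPM through a median of 27.5 to 357 CPM in KC pancreas, against 3.05 CPM through a median of 5.57 to 18.6 CPM in KC blood. In KC pancreas, 7 of 12 libraries lay above the highest blood library, and the other 5 lay between 3.55 and 4.77 CPM, within the blood range. The libraries at 100 CPM or more were Sample_42P8 of 4 weeks (357 CPM), Sample_303P8 and Sample_302P8 of 30 weeks (157 and 149 CPM) and Sample_95P8 of 9 weeks (116 CPM). The log2 fold change was 2.65 ± 0.93 (SE, 12 against 9 libraries), with a 95% interval of 0.78 to 4.52, an unadjusted p of 0.00649 and an adjusted p of 0.267 in edgeR. Of 9 KC pairs that share a title number, pancreas was higher in 6.

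A pair of other analyses called Irf4. DESeq2 gave it a log2 fold change of 2.64 at an adjusted p of 0.00291, where 4.34% of all genes were called. edgeR without age in the model gave 3.47 at an adjusted p of 0.0491, where 0.777% of 8361 genes were called. Within the carry-over sets the edgeR estimate was 3.31 in set 1 (adjusted p = 0.397) and 2.18 in set 2 (adjusted p = 0.719). When single libraries were left out it stayed between 2.23 and 3.23.

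Eomes, the T-box factor of memory and exhausted cells, had a lowest value of 2.07, a median of 68.9 and a highest of 283 CPM in KC pancreas. In KC blood the lowest was 1.16, the median 22.6 and the highest 219 CPM. The ranges overlapped. Sample_43B8 of 4 weeks was at 219 CPM, and the next highest blood library was at 45.4 CPM, which 7 of 12 pancreas libraries exceeded while the other 5 lay between 2.07 and 43.7 CPM. Pancreas was higher in 7 of 9 pairs. The edgeR log2 fold change was 2.15 ± 0.86 (95% interval 0.43 to 3.87, adjusted p = 0.351), and DESeq2 called it (2.36, adjusted p = 0.0300). Leaving out Sample_43B8 raised the estimate to 3.04 (adjusted p = 0.189) and leaving out Sample_133P8 brought it to 1.33. Within the sets it was 1.08 in set 1 (adjusted p = 0.776) and 2.78 in set 2 (adjusted p = 0.550), both by edgeR.

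Tox, the driver of the exhaustion programme, ran from 24.1 through a median of 182 to 760 CPM in KC pancreas, against 8.34 through a median of 93.5 to 181 CPM in KC blood. In KC pancreas 7 of 12 libraries lay above every blood library. Sample_41P8 (182.8 CPM) and Sample_94P8 (181.9 CPM) were only just above the highest, Sample_205B8 (180.6 CPM). This count depended on scaling. In TMM-scaled CPM the highest blood library was Sample_42B8 (195.2 CPM). Sample_41P8 (156.2 CPM) and Sample_95P8 then lay below it, while the rest of the 7 stayed above. The pair with the highest levels, Sample_132P8 (760 CPM) and Sample_131P8 (547 CPM), were both of 13 weeks. The third pancreas library of that age, Sample_133P8, had 24.3 CPM. The log2 fold change was 1.42 ± 0.61 (95% interval 0.20 to 2.65, adjusted p = 0.408 in edgeR), with pancreas higher in 7 of 9 pairs. It was 0.99 in set 1 (adjusted p = 0.724) and 0.96 in set 2 (adjusted p = 0.749). Its relative Tox2 had 56 counts over all libraries, at most 7 in any of them, and was too low to be tested.

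Tbx21 had a log2 fold change of 2.30 ± 1.31 (adjusted p = 0.592 in edgeR), and it rested on few libraries. In KC pancreas it was lowest at 0, with a median of 1.55 and a highest value of 100 CPM, against a lowest of 0.132, a median of 0.711 and a highest of 24.3 CPM in KC blood. Above the highest blood library lay 2 pancreas libraries, Sample_132P8 (100 CPM) and Sample_42P8 (61.1 CPM). Without Sample_132P8 the estimate was 0.70. The sets differed in size, with 5.92 in set 1 (adjusted p = 0.348) and 0.73 in set 2 (adjusted p = 0.964).

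The remaining 4 factors had estimates on both sides of 0. Id2, the inhibitor of E proteins, had a median of 33.7 CPM in KC pancreas (1.94 to 117) and 39.4 CPM in KC blood (5.90 to 98.5), with a log2 fold change of 0.25 ± 0.75 (adjusted p = 0.954 in edgeR). Its 95% interval of -1.26 to 1.76 leaves room for a difference of a few fold in either direction. With TMM-scaled library sizes the order of the Id2 medians was reversed, at 39.0 CPM in KC pancreas and 28.7 CPM in KC blood. Runx3, the CD8 lineage factor, had a median of 140 CPM in KC pancreas (51.8 to 467) and 217 CPM in KC blood (63.2 to 1502). Runx3 had closer medians with TMM-scaled library sizes, 131.7 CPM in KC pancreas and 137.0 CPM in KC blood. Its 2 highest libraries of all were blood libraries of 13 weeks, Sample_131B8 at 1502 CPM and Sample_133B8 at 619 CPM, and the log2 fold change was -0.73 ± 0.57 (adjusted p = 0.733 in edgeR). The estimate was -2.27 in set 1 (adjusted p = 0.311), 0.80 in set 2 (adjusted p = 0.839) and -0.10 without Sample_131B8.

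The highest library held 72.8% of the summed CPM of Prdm1 in KC pancreas and 84.8% in KC blood, and 61.9% of that of Zeb2 in KC pancreas and 44.1% in KC blood. Prdm1 had a median of 1.64 CPM in KC pancreas (0.775 to 212) and 4.32 CPM in KC blood (0.720 to 272), with a log2 fold change of -0.35 ± 1.21 (adjusted p = 0.966 in edgeR). It turned to 0.56 without Sample_302B8, and was 2.32 in set 1 (adjusted p = 0.608) and -0.70 in set 2 (adjusted p = 0.954). Zeb2 had a median of 24.4 CPM in KC pancreas (0.760 to 558) and 28.1 CPM in KC blood (1.73 to 172), with a log2 fold change of -0.20 ± 0.95 (adjusted p = 0.976 in edgeR). It was 1.37 in set 1 (adjusted p = 0.691) and -0.14 in set 2 (adjusted p = 0.993), and it turned to 0.70 without Sample_133B8. With TMM-scaled library sizes Zeb2 had medians in the reverse order, 23.9 CPM in KC pancreas and 15.5 CPM in KC blood. Its highest libraries in pancreas and in blood, both of 30 weeks, shared a title number.

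**Figure D2:**
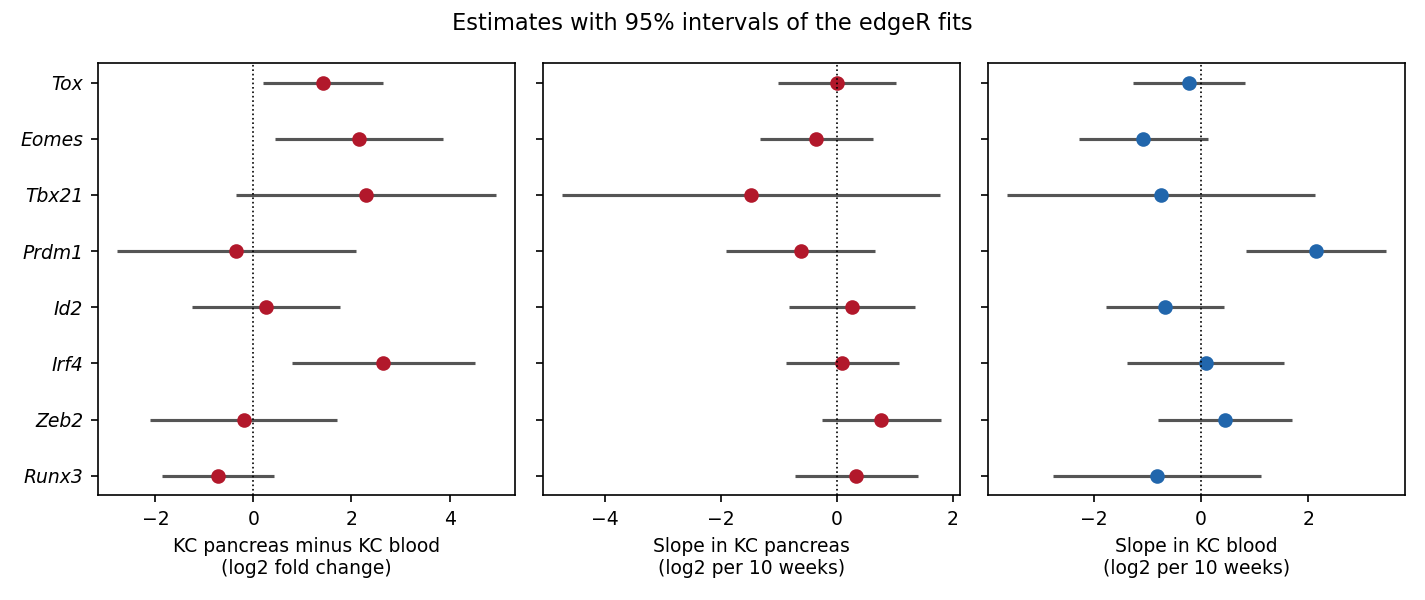
Estimates (points) with 95% intervals (lines) for the 8 factors tested, from edgeR, as the log2 fold change of KC pancreas over KC blood (left) and as slopes in log2 per 10 weeks in KC pancreas (middle) and KC blood (right). The intervals of Irf4, Eomes and Tox lay above 0 on the left and that of Prdm1 above 0 on the right, but none of these had an adjusted p under 0.05.

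Libraries of the same tissue and age differed widely. In KC pancreas of 13 weeks (n = 3), Tox had 547, 760 and 24.3 CPM in Sample_131P8, Sample_132P8 and Sample_133P8, and Eomes had 18.4, 2.07 and 147 CPM in the same order, so the library lowest in Tox was highest in Eomes. Sample_132P8, which had the most Tox and the most Tbx21 of all libraries, had the least Id2 (1.94 CPM against 117 CPM in Sample_131P8). In KC pancreas of 4 weeks (n = 3), Prdm1 had 0.977, 8.44 and 212 CPM in Sample_41P8, Sample_42P8 and Sample_43P8, a 217-fold range. In KC pancreas of 9 weeks, Irf4 had 3.55 CPM in Sample_94P8 and 116 CPM in Sample_95P8.

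The coefficient of variation over the libraries of a group put a figure on this. In KC pancreas it was 2.50 for Prdm1, 2.09 for Zeb2, 1.79 for Tbx21 and 1.43 for Irf4, and 0.909 for Tox, 0.891 for Eomes, 0.758 for Id2 and 0.716 for Runx3. The median over all 13474 genes that passed the filter was 1.56 in KC pancreas, and the T cell genes Cd3e and Cd8a had 0.445 and 0.304. In KC blood the factors ran from 0.633 (Id2) to 2.49 (Prdm1), against a median of 1.28 over all genes. Set beside genes whose mean in KC pancreas was within 2-fold of their own, Zeb2 varied more than 94.4%, Prdm1 more than 91.3%, Irf4 more than 79.7% and Tox more than 78.0%. The shares were 68.3% for Tbx21, 43.1% for Runx3, 41.7% for Eomes and 11.6% for Id2. In KC blood they were 97.6% for Prdm1, 96.0% for Runx3, 89.3% for Eomes, 74.8% for Zeb2, 60.3% for Tbx21, 25.8% for Tox, 9.73% for Id2 and 2.38% for Irf4. The 3 highest of 24 libraries held 80.9% of the summed CPM of Prdm1, 65.6% of that of Zeb2, 63.7% for Irf4 and 61.1% for Tbx21, but 36.6% for Tox and 30.7% for Id2.

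The T-box pair showed no common pattern, with a Spearman's rho of 0.01 over the 24 libraries. Of the 3 libraries with Tbx21 at 50 CPM or more, 2 also had Eomes at that level, Sample_42P8 of KC pancreas and Sample_W3P8 of WT pancreas. Of the 10 libraries with at least 50 CPM of Eomes, 5 had Tbx21 not above 5 times its carry-over estimate, as did 11 of all 24 libraries. In Sample_133P8 and Sample_94P8, Eomes stood at 147 and 144 CPM with 3 and 0 counts of Tbx21. In Sample_132P8 the order was reversed, with 2.07 CPM of Eomes and 100 CPM of Tbx21.

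The number of factors at 50 CPM or more also set libraries apart. Sample_42P8 of 4 weeks had 6 (Tox, Eomes, Tbx21, Irf4, Zeb2 and Runx3), and Sample_43P8 of 4 weeks and both KC pancreas libraries of 30 weeks had 5. The other 8 KC pancreas libraries had 2 or 3. Both WT pancreas libraries had 4. In KC blood the highest number was 4, in Sample_302B8 (Tox, Prdm1, Zeb2 and Runx3), and Sample_131B8 had 1 (Runx3).

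Irf4, Prdm1 and Zeb2 are also made by myeloid cells, B cells or plasma cells, so markers of such cells are given beside them. The highest Zeb2 level, 558 CPM in Sample_302P8, came with the highest sum of 10 macrophage and monocyte markers, 499 CPM, where the KC pancreas range was 2.21 to 499 CPM (median 45.5). The highest Zeb2 level in blood, 172 CPM in Sample_302B8, came with a marker sum of 6.22 CPM, in a KC blood range of 3.15 to 413 CPM (median 7.92). Sample_95B8, with the 413 CPM, had 28.1 CPM of Zeb2. The part of macrophage RNA in the Zeb2 values of the pancreas was not tested.

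For Prdm1, the highest pancreas library, Sample_43P8 at 212 CPM, had the highest sum of 4 plasma cell markers, 159 CPM, in a KC pancreas range of 0 to 159 CPM (median 0.891). This library also had the highest sums of dendritic cell markers (195 CPM) and fibroblast markers (416 CPM) and 4600 CPM of acinar markers. Sample_302B8, with 272 CPM of Prdm1, had a plasma cell sum of 0.265 CPM, in a KC blood range of 0 to 1.97 CPM. Its sum of dendritic cell markers, 38.4 CPM, was the highest of KC blood (median 22.2 CPM). The part of plasma cell RNA in the value of Sample_43P8 was not tested, and in Sample_302B8 the plasma cell markers were near 0.

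For Irf4, Sample_42P8 at 357 CPM had 104 CPM of macrophage markers, 19.8 CPM of B cell markers and the highest acinar sum, 8346 CPM. Sample_95P8, at 116 CPM of Irf4, had macrophage, B cell and plasma cell sums of 25.9, 36.8 and 4.21 CPM. Sample_302P8, Sample_303P8 and Sample_43P8 held 499, 65.2 and 111 CPM of macrophage markers, and Sample_43P8 also held 159 CPM of plasma cell markers. Sample_41P8, at 18.9 CPM of Irf4, had macrophage, B cell and plasma cell sums of 178, 96.3 and 29.5 CPM. Sample_131P8, at 36.0 CPM of Irf4, had 2.21 CPM of macrophage markers. Their part in the Irf4 levels was not tested. Markers of natural killer cells, which express Tbx21 and Eomes, summed to 0.721 to 52.8 CPM in KC pancreas (median 13.7) and 0.727 to 95.7 CPM in KC blood (median 35.8), with Klra4 and Klra8 at 0 in every library.

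**Figure D3:**
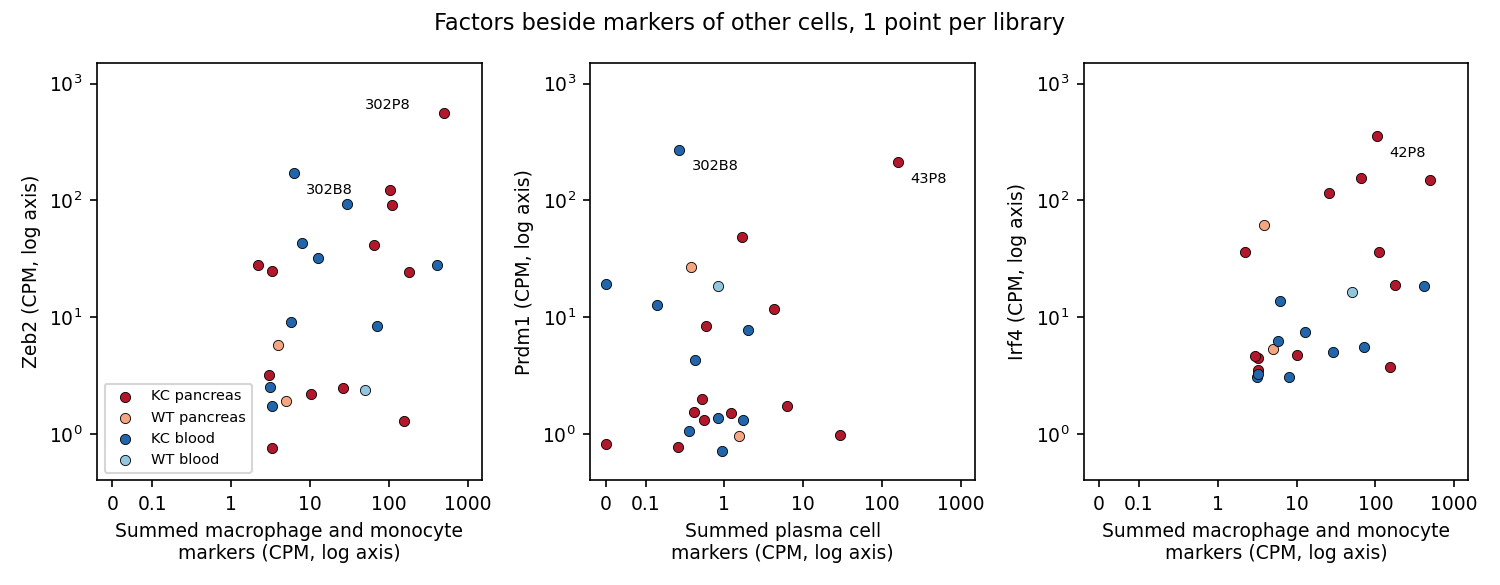
CPM of Zeb2 (left), Prdm1 (middle) and Irf4 (right) against the summed CPM of marker genes of macrophages and monocytes or of plasma cells, both on log axes (0 drawn at the left edge), 1 point per library and coloured by group. The highest Zeb2 and Prdm1 levels of KC pancreas came with the highest marker sums (499 and 159 CPM), and those of KC blood with sums of 6.22 and 0.265 CPM.

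The age series asks whether the factors move as lesions progress. Age and carry-over set overlapped in it, so their effects cannot be fully told apart. In KC pancreas the libraries of 4 and 13 weeks were in set 1 and those of 9, 20 and 30 weeks in set 2. In KC blood those of 4 weeks and Sample_131B8 of 13 weeks were in set 1, and all others in set 2. None of the 8 factors tested had a slope with an adjusted p under 0.05 in KC pancreas, where edgeR called 28 of 9555 genes, or 0.293%. With carry-over set in the model, edgeR called 0 of the 9555 genes. The median slope of the 8 factors in the main fit was 0.05 log2 per 10 weeks, against -0.04 for all genes. The steepest estimates were -1.48 ± 1.58 for Tbx21 (adjusted p = 0.901), 0.77 ± 0.50 for Zeb2 (adjusted p = 0.758) and -0.63 ± 0.62 for Prdm1 (adjusted p = 0.891). Zeb2 and Prdm1 changed sign with single libraries: Zeb2 turned to -0.59 without Sample_302P8, and Prdm1 ran from -2.35 without that library to 0.97 without Sample_43P8. Tbx21 stayed negative with each library left out, from -1.95 to -0.69, the latter without Sample_303P8. Tbx21 and Prdm1 turned to 0.32 and 0.47 with carry-over set in the model. Tox had a slope of -0.00 ± 0.49 (95% interval -1.02 to 1.02), Irf4 of 0.10 ± 0.47, Id2 of 0.26 ± 0.52, Runx3 of 0.33 ± 0.51 and Eomes of -0.36 ± 0.47.

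A straight slope left out the shape of some series. Irf4 in KC pancreas had 18.9, 357 and 36.2 CPM at 4 weeks, 3.55 and 116 CPM at 9 weeks, 36.0, 3.75 and 4.45 CPM at 13 weeks, 4.77 and 4.63 CPM at 20 weeks, and 149 and 157 CPM at 30 weeks. The 30-week libraries were thus both high and the 20-week libraries both at the blood level. Zeb2 in KC pancreas had 24.3, 124 and 91.3 CPM at 4 weeks, 24.6 and 2.47 CPM at 9 weeks, 27.9, 1.29 and 0.760 CPM at 13 weeks, 2.18 and 3.19 CPM at 20 weeks, and 558 and 41.1 CPM at 30 weeks. Its 4- and 30-week libraries lay above its 20-week libraries without overlap. With 2 or 3 libraries an age, these patterns were noticed in the values and have no test of their own.

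In KC blood, edgeR called 0 of 9933 genes for age (870 had an unadjusted p under 0.05), a share of 0%, and so none of the factors. Prdm1 had the steepest slope, 2.14 ± 0.64 log2 per 10 weeks (95% interval 0.83 to 3.45, unadjusted p = 0.00237, adjusted p = 0.350). Its values were 1.36 and 0.720 CPM at 4 weeks, 7.80 CPM at 9 weeks, 1.32, 4.32 and 19.3 CPM at 13 weeks, 1.07 CPM at 20 weeks and 272 and 12.7 CPM at 30 weeks. DESeq2 called this slope (2.03, adjusted p = 0.0287), where it called 3.19% of all genes. Without Sample_302B8 the edgeR slope was 0.68. Eomes had a slope of -1.07 ± 0.59 (adjusted p = 0.614 in edgeR), which turned to 0.12 without Sample_43B8, and the other 6 slopes ran from -0.82 (Runx3) to 0.45 (Zeb2).

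The slopes of the 2 tissues were compared directly. None of the factors passed, and 0.0543% of 11059 genes were called by edgeR. Prdm1 had the largest difference, with a slope 2.73 ± 0.98 log2 per 10 weeks lower in KC pancreas than in KC blood (95% interval of the difference -4.70 to -0.76, adjusted p = 0.359). It ranged from -4.47 without Sample_302P8 (adjusted p = 0.0743) to -1.11 without Sample_43P8. The adjusted p of the other 7 factors was 0.778 or more.

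**Figure D4:**
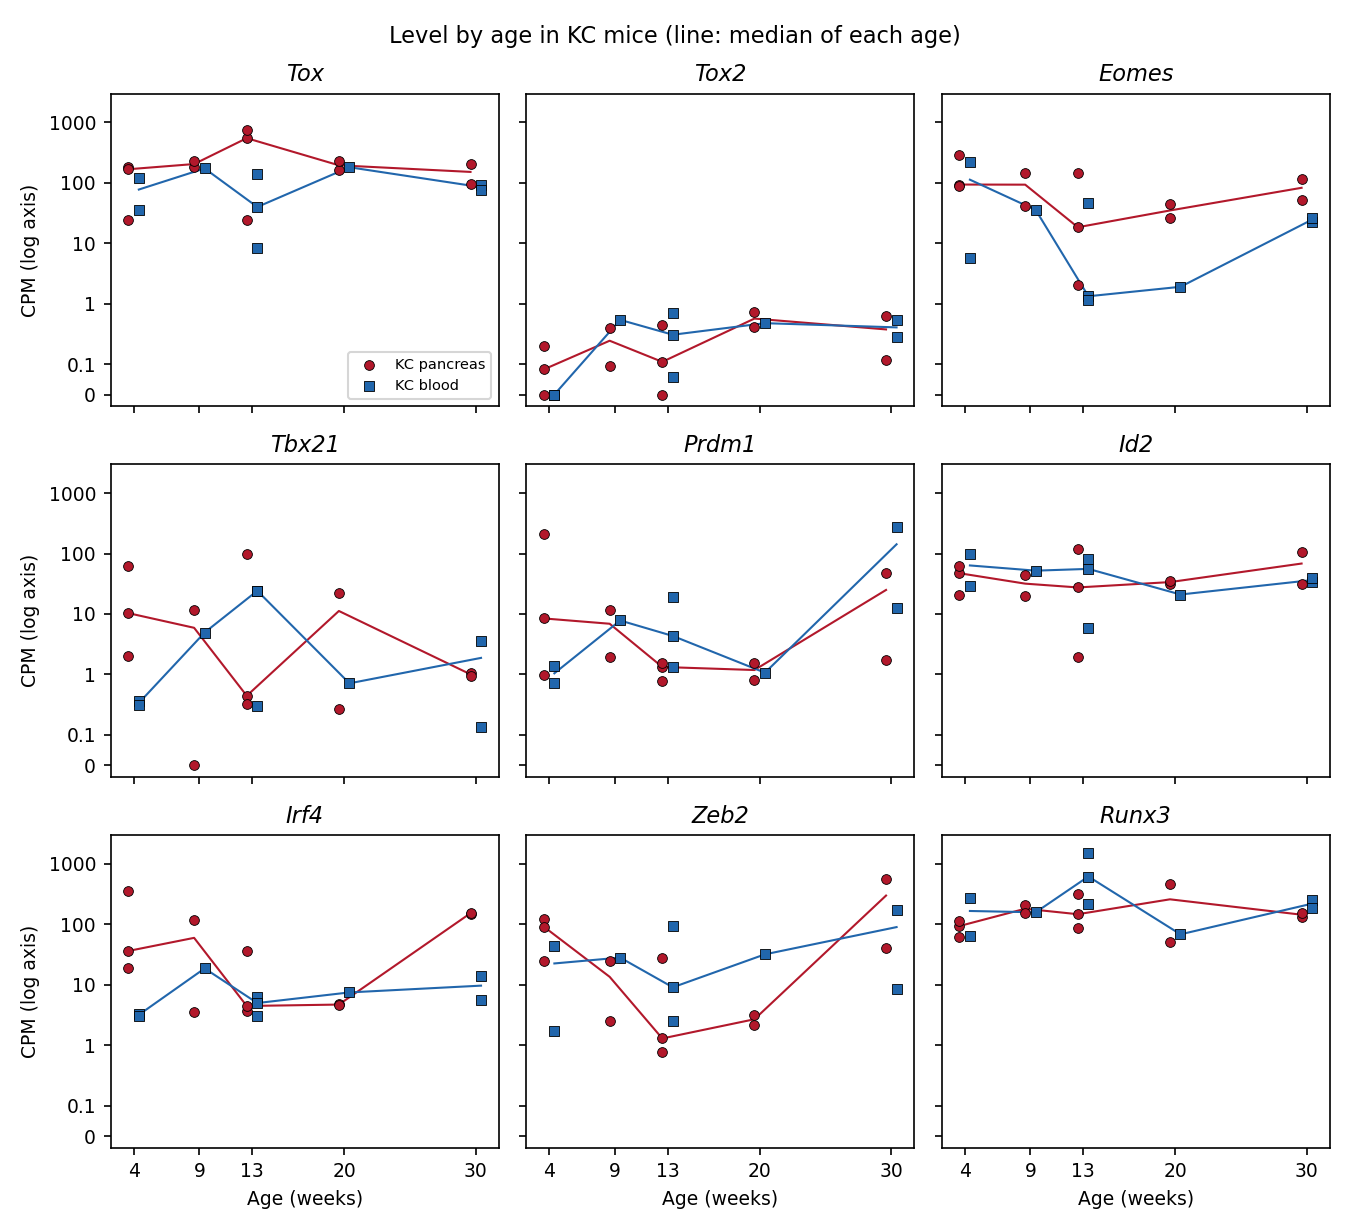
CPM of each factor on a log axis (0 drawn at the foot) by age in KC pancreas (circles) and KC blood (squares), 1 point per library, with a line through the median of each age. Irf4 in pancreas was at 149 and 157 CPM at 30 weeks, against 4.77 and 4.63 CPM at 20 weeks, and Prdm1 in blood reached 272 CPM in 1 library of 30 weeks.

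WT libraries existed in pancreas at 9 and 30 weeks. In the fit over both ages none of the 8 factors was called between KC pancreas and WT pancreas, where edgeR called 21 of 10829 genes, or 0.194%. Tbx21 had 0 and 11.8 CPM in KC pancreas of 9 weeks, against 19.1 CPM in WT pancreas of 9 weeks. At 30 weeks it had 1.06 and 0.945 CPM in KC pancreas, against 50.03 CPM in WT pancreas. The KC libraries were lower at both ages, with a log2 fold change of -4.16 ± 2.10 (95% interval -8.41 to 0.10, adjusted p = 0.957 in edgeR). It was -2.39 without Sample_W3P8 and -6.79 without Sample_95P8.

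Zeb2 went the other way at 30 weeks, with 558 and 41.1 CPM in KC pancreas, against 1.91 CPM in WT pancreas. At 9 weeks its values were 24.6 and 2.47 CPM in KC pancreas, on both sides of the 5.79 CPM in WT pancreas. The log2 fold change was 3.20 ± 2.03 (adjusted p = 0.957 in edgeR), and it was 7.49 without Sample_W1P8 and 1.34 without Sample_W3P8. Irf4 had 149 and 157 CPM in KC pancreas of 30 weeks, against 5.35 CPM in WT pancreas, but 3.55 and 116 CPM at 9 weeks on both sides of 61.7 CPM in WT pancreas (log2 fold change 1.08 ± 1.90, adjusted p = 0.976 in edgeR). The other 5 factors had log2 fold changes of -0.56 (Prdm1) to 0.68 (Id2), with adjusted p of 0.977 or more.

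Genotype and carry-over set coincided at 9 and 30 weeks in pancreas, since the WT libraries were in set 1 and the KC libraries in set 2, so the effects of the 2 cannot be told apart. Acinar markers moved with genotype too: 14 of 14 tested were lower in KC pancreas and 11 were called by edgeR. Their sums also differed by set and age within KC pancreas. They were 3467 and 933 CPM in WT pancreas and 1473, 8346 and 4600 CPM in KC pancreas of 4 weeks, all of set 1. KC pancreas of 13 weeks, also of set 1, had 93.1, 484 and 89.0 CPM, and that of set 2 had 0.103 to 59.0 CPM. In blood of 30 weeks, Prdm1 had 272 and 12.7 CPM in KC mice, against 18.3 CPM in the WT mouse, and Zeb2 had 172 and 8.35 CPM in KC mice, against 2.39 CPM in the WT mouse. Tox had 93.5 and 75.6 CPM in KC blood, against 113 CPM in WT blood. Between the WT libraries of 30 weeks, Tox had 225 CPM in pancreas and 113 CPM in blood, Eomes 90.8 CPM in pancreas and 46.4 CPM in blood, and Tbx21 50.03 CPM in pancreas and 7.06 CPM in blood. Irf4 had 5.35 CPM in that pancreas library and 16.5 CPM in the blood library. These values have no replicate in WT blood and no test.

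Other genes of the same programmes gave a frame for the comparison of KC pancreas with KC blood. Among 16 further effector, residency and exhaustion factors, 11 had positive log2 fold changes (median 0.66) and edgeR called 1: Nr4a1, a nuclear receptor induced by receptor signals, rose by 5.11 ± 1.03 log2 (adjusted p = 0.0135). Nr4a3, its relative, had 3.52 ± 0.80 (adjusted p = 0.0550). Of 12 residency genes, 11 were positive (median 1.59), and Rgs2, a regulator of G protein signalling, was called (3.69 ± 0.60, adjusted p = 0.000771). The next was Qpct at 6.61 ± 1.62 (adjusted p = 0.0852).

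No gene of the other 5 lists was called in this comparison. Of 12 naive and memory factors 9 were positive (median 0.35), led by Tcf7, which sustains stem-like cells (0.95 ± 0.34, adjusted p = 0.306 in edgeR), and Ets1 (0.67, adjusted p = 0.539). Of 11 partners and paralogues of the factors 3 were positive (median -0.12), with the smallest p for the E protein gene Tcf4 (-3.06 ± 1.34, adjusted p = 0.437) and for Zeb1, the paralogue of Zeb2 (-1.05, adjusted p = 0.585). Of 19 effector genes 8 were positive (median -0.34): Ifng, the interferon gamma gene, had 3.60 ± 1.38 (adjusted p = 0.322) and Cx3cr1, a chemokine receptor of terminal effector cells, had -3.18 ± 1.25 (adjusted p = 0.345). Of 8 exhaustion receptors 4 were positive (median 0.21), with Cd244 at -6.65 ± 1.62 (adjusted p = 0.0852) and Ctla4 at 1.86 ± 1.21 (adjusted p = 0.657), and of 6 tissue exit and homing genes 3 were positive (median 0.08), led by S1pr5 (-2.35, adjusted p = 0.685).

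For age in KC pancreas, none of the 7 lists had a gene called by edgeR. The smallest p-values belonged to P2rx7 (-3.17 log2 per 10 weeks, adjusted p = 0.158) and Rgs2 (0.69, adjusted p = 0.422) among residency genes, Ifng (2.05, adjusted p = 0.325) and Gzmm (2.47, adjusted p = 0.558) among effector genes, and Tcf4 (-2.22, adjusted p = 0.344) and Batf (-1.92, adjusted p = 0.480), a partner of Irf4, among partners. Lag3 (-1.46, adjusted p = 0.675) and Tigit (0.55, adjusted p = 0.902) led the exhaustion receptors. Of the 11 partners and paralogues 9 had negative slopes, with a median of -0.65 against -0.04 for all genes. Leading genes of the other lists, Ikzf2, Nr4a3, Klf3, Foxp1 and Ccr7, had slopes of -0.86, 0.46, -0.32, 0.27 and -0.23 in that order, with adjusted p from 0.782 to 0.946. None of the 7 lists had a gene called by edgeR in the other 3 comparisons either (the KC blood trend, the difference of slopes, and KC pancreas against WT pancreas).

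The genes most like each factor were sought by Spearman's rho of log2(CPM + 1) over the 24 libraries among 13466 genes, which share libraries, depth and carry-over. Tox was most like Rdx (0.72), which encodes radixin, and Tcf7 (0.71). Eomes was most like Fos (0.71), an immediate early gene, and Atxn7l3b (0.71). Irf4 was most like C920009B18Rik (0.84) and Larp1b (0.81), Prdm1 like Zfp867 (0.81) and Brd8 (0.81), and Zeb2 like Etfdh (0.79) and Fam118b (0.75). Tbx21 was most like Rbm42 (0.75) and Mtfr1l (0.74), Id2 like Sfmbt2 (0.78) and Zfp626 (0.73), and Runx3 like Lipa (0.74) and 1600002H07Rik (0.72). The factors themselves were left out of the genes compared, so this search cannot show whether they were like one another. Taken directly, rho between factors over the 24 libraries ran from -0.38 (Irf4 and Runx3) to 0.54 (Prdm1 and Irf4).

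In the GRCm38 annotation, the build of the counts (mm10), the 9 are protein-coding genes. Tox lies on the minus strand at chr4:6686353-6991557 and Runx3 on the plus strand of the same chromosome at chr4:135120652-135177990. Tox2 (plus, chr2:163203125-163324170) and Zeb2 (minus, chr2:44983632-45117395) share chromosome 2. The others are Eomes (plus, chr9:118478212-118486132), Tbx21 (minus, chr11:97098071-97115331), Prdm1 (minus, chr10:44437177-44528501), Id2 (minus, chr12:25093799-25097140) and Irf4 (plus, chr13:30749226-30766976). The counts are sums over each gene, so exons and isoforms were not separated. Zeb2 overlaps its antisense gene Zeb2os, and reads of the 2 cannot be told apart without strand, but Zeb2os held only 15 counts in all libraries and at most 6 in any, beside 11426 of Zeb2.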

How the data were processed

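The sorted cells were used for total RNA (Rneasy Plus Micro kit), per the labels. The deposited files hold raw read counts per gene symbol as the authors counted them, with no normalisation. TopHat, SAMtools, HTSeq, DESeq and mm10 are named in the submitters' processing notes; versions, annotation and strand use are not given in the sources used here. Per library, 11.7% to 32.5% of tallied reads fell in genes, 48.6% to 69.7% in no feature and 15.8% to 22.8% were not unique; these tallies were left out of library sizes. Rn45s took 1.86% to 18.2% of the counts.

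Groups and ages came from the labels. Tests were edgeR 4.0.16 quasi-likelihood F-tests in R 4.3.3 (TMM, filterByExpr with a minimum count of 10, robust, two-sided), adjusted over all genes by Benjamini-Hochberg, with a threshold of 0.05; the SE is the absolute log2 fold change over the square root of F. DESeq2 1.42.0 was an alternative. Tissue was tested in the 21 KC libraries with 1 term per age, age as a slope within a tissue, slopes by their interaction, and genotype in the 14 pancreas libraries with age. The edgeR fits were tested on simulated counts. Lengths and positions came from a GENCODE annotation of GRCm38; Zfp683 of the listed factors was not found by symbol. All 9 factors were named, with the 2 genes most like each and the 2 of each list with the smallest p. A gene that this rule selects is not reported here by name. The factors, lists and tests were chosen with earlier results of these data known.

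Pancreas and blood libraries share title numbers, but the labels do not say that a number is 1 mouse. In 10 of 10 such pairs Xist was above 1000 CPM in both libraries or in neither. In 7 pairs the deviations from group means correlated at -0.0749 to 0.00781. With so few libraries an age, neither check can decide whether a number is 1 mouse. The main fits did not take the numbers as pairing the libraries.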

Additional observations from a re-analysis of the deposited data

Results flagged for a closer look

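Prdm1 in KC blood was the 1 result set apart by a single library. Sample_302B8 of 30 weeks had 272 CPM, and the next highest of the 9 KC blood libraries, Sample_133B8 of 13 weeks, had 19.3 CPM. On the log2(CPM + 1) scale the gap between them was 0.512 of the whole range of the group, above the critical value of Dixon's test for 9 samples. The groups of 4 to 10 libraries were those of KC blood, 1 for each of the 9 factors, and chance sets apart about 1 in 20 such groups. The plasma cell markers of that library summed to 0.265 CPM and its macrophage markers to 6.22 CPM. Its dendritic cell markers summed to 38.4 CPM, the highest of KC blood (median 22.2 CPM).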

How the results depend on the processing

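The count of factors passing the test was 0 with edgeR in each of the 5 comparisons under the main settings, other scaling, no filter on low counts and each library left out. It was also 0 with carry-over set in the model, which was run for all but KC against WT, and in each set alone, run between tissues. The exceptions were pancreas against blood, with 2 factors under DESeq2 (Irf4 and Eomes) and 1 in edgeR with no age term (Irf4), and age in KC blood, with 1 under DESeq2 (Prdm1). Over all genes, the same fits called 4.34% (DESeq2) and 0.777% (no age term) between tissues, and 3.19% for age in KC blood (DESeq2). DESeq2 gave Prdm1 and Zeb2 no p between tissues. Tox, Eomes, Tbx21 and Irf4 kept a positive sign between tissues under every alternative run. The number of all genes called depended on the setting: over the other settings it was 2 to 480 between tissues, 0 to 686 for age in KC pancreas, 0 to 317 for age in KC blood, 0 to 242 for the difference of slopes and 8 to 163 for KC against WT pancreas. With single libraries left out it was 6 to 21, 10 to 31, 0 to 12, 0 to 13 and 4 to 25 in the same order.

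Signs turned as follows, in log2 units, and the cause was not tested. Between tissues, Prdm1 was 0.12 with no age term, 0.44 with set in the model and 2.32 in set 1; Zeb2 was 1.15, 0.64 and 1.37 under the same settings. Id2 was -0.31 in set 1 and Runx3 0.80 in set 2. For age in KC pancreas, Tox was 0.0034 with no filter, 0.60 with set in the model and 0.53 on log2 of age. With set, Tbx21 was 0.32 and Prdm1 0.47. Without the 4-week libraries Prdm1 was 1.29 and Runx3 -0.34, and on log2 of age Irf4 was -0.12. For age in KC blood, Irf4 was -0.013 with DESeq2 size factors, -0.012 in DESeq2, -0.0039 with set and -0.086 without 4 weeks. Eomes was 0.044 without 4 weeks, Runx3 was 0.17 with set and 7.27e-05 on log2 of age, and Tbx21 was 0.78 on log2 of age. Against WT, Eomes was 0.060, Prdm1 4.90 and Runx3 0.044 at 30 weeks alone, and Id2 was -0.28 and Irf4 -0.72 at 9 weeks alone.

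Leaving out 1 library at a time turned these signs. Between tissues, Id2 ran from -0.12 to 0.65, Prdm1 from -0.81 to 0.56 and Zeb2 from -0.75 to 0.70. For age in KC pancreas, Tox ran from -0.31 to 0.53, Prdm1 from -2.35 to 0.97, Id2 from -0.041 to 0.42, Irf4 from -0.13 to 0.83 and Zeb2 from -0.59 to 1.0. For age in KC blood, Tox ran from -0.36 to 0.11, Eomes from -1.32 to 0.12, Tbx21 from -1.42 to 0.31, Irf4 from -0.12 to 0.27 and Zeb2 from -0.56 to 1.0. For the difference of slopes, Tox ran from -0.11 to 0.76, Eomes from -0.45 to 1.01, Tbx21 from -1.76 to 0.098, Irf4 from -0.21 to 0.77 and Zeb2 from -1.02 to 1.35. Against WT, Eomes ran from -1.20 to 0.060, Id2 from -0.28 to 1.93, Irf4 from -0.72 to 5.02, Prdm1 from -2.50 to 4.90 and Runx3 from -1.0 to 0.045.

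With the title number as a replicate block, 13 genes were higher and 1 lower between tissues and 0 genes differed in slope, and no factor was called in either. Zeb2 turned to 0.37 under that block, and Irf4 was 2.87 (adjusted p = 0.739 in edgeR). Of the 7 pairs, the 5 of 4 and 13 weeks did not correlate best with their own number, and the 2 of 30 weeks are mirror images that give 1 value. DESeq2 size factors moved the median of all genes in the blood trend to -0.24, against -0.12 with TMM. Carry-over and depth limit what a factor under about 5 CPM can show.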
